A study of Plecoglossus altivelis with 9 samples.

Results

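In ayu macrophages exposed to LECT2, 220 of 49077 microarray probes were dim on each of the 3 arrays without LECT2 and were detected on each of the 3 arrays at 5.0 μg/ml. Detected means here that the image software marked the spot as well above its background, and dim that it did not. These 220 probes, called the members, were chosen by that pattern of marks alone. They are read against the 23016 probes that were dim on each array at 0 μg/ml, a set that includes them. The deposited files do not pair probes with genes, so the members are described by their probe IDs or ranks and no gene function is attached to them.

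The cells were adherent cells of the head kidney of ayu (Plecoglossus altivelis), incubated for 3.5 h with LECT2 at 0, 0.5, or 5.0 μg/ml. Each dose had 3 arrays, which the submitters describe as independent experiments on different fish. The strain, age, and number of fish per array and the source of the LECT2 protein are not given in the sources used here. All groups shared the same culture medium with serum, and the 0 μg/ml arrays are the untreated control. One Cy3-labelled RNA sample was hybridized to each array, and precision is limited by there being 3 arrays per dose. Whether the adherent cells carried the markers of macrophages was not tested, because no probe could be assigned to a marker gene. In RNA from a whole culture, more cells of a type and more RNA per cell cannot be told apart.

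LECT2 is leukocyte cell-derived chemotaxin 2, a protein that is made mainly in the liver and secreted into the blood, and that was first known for attracting neutrophils. In mice it binds CD209a, a C-type lectin receptor on macrophages. The head kidney is the main blood-forming organ of teleosts and the usual source of their macrophages, which take up microbes and secrete cytokines that call in other leukocytes. Genes that are silent or very low in resting macrophages and switched on after a stimulus include many cytokines and chemokines. A detection call on an array asks only whether a spot is brighter than a limit, and a call that changes from absent to present can therefore rest on a small change near that limit.

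The detection mark separated the spots of an array at a single intensity, which lay at 5.00 to 5.02 times the lowest intensity of that array. This intensity is called the detection limit of the array, and the value of a dim spot was not taken as a measured level. On replicates 1, 2, and 3 at 0 μg/ml, 12, 53, and 31 of the 220 members lay at the lowest intensity. The other members lay between it and the limit. The level of a spot is given as its log2 processed intensity minus the 75th percentile of its array, so that 0 is that percentile. On this scale the limit was −2.21, −1.43, and −1.57 on replicates 1, 2, and 3 at 0 μg/ml. It was −0.88, −1.46, and −2.48 at 0.5 μg/ml, and −2.44, −1.65, and −2.10 at 5.0 μg/ml. Replicate 1 at 0.5 μg/ml thus had the highest limit of all arrays, and replicate 3 at the same dose the lowest. Between 16531 and 24887 probes per array were detected, and no spot was saturated.

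The member with the largest lower bound of the rise was probe A_1000000_P0024991. Its level was −3.07, −3.75, and −1.79 on the arrays at 0 μg/ml, −2.22, −2.33, and −0.95 at 0.5 μg/ml, and 2.57, 2.39, and 2.19 at 5.0 μg/ml. All arrays at 5.0 μg/ml lay far above all arrays at the lower doses, while the arrays at 0 and 0.5 μg/ml overlapped. The processed intensity was 20.1, 12.3, and 48.0 at 0 μg/ml, 29.9, 33.3, and 124 at 0.5 μg/ml, and 1110, 979, and 1270 at 5.0 μg/ml. Its mean level at 5.0 μg/ml was 2.38 ± 0.19 (SD, n = 3), at the 72.4th percentile of the 19029 probes detected on every array of that dose. At 0.5 μg/ml it was detected on replicate 3 only.

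A lower bound was used because the value of a dim spot was not taken as a measured level. For each array at 0 μg/ml, the higher of the probe's own level and the lowest level of any detected probe was taken. The mean of these values was subtracted from the mean level at 5.0 μg/ml. By this measure the level of probe A_1000000_P0024991 at 5.0 μg/ml exceeded that at 0 μg/ml at least 17.4-fold (log2 bound 4.12). Every member was dim at 0 μg/ml, so the limit was taken on each array and the same value was subtracted for all members. The bound thus orders the members as their mean level at 5.0 μg/ml does, and holds nothing of their own level at 0 μg/ml.

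The member with the largest bound among those dim on every array at 0.5 μg/ml was probe A_1000000_P0042678. Its level was −3.06, −3.41, and −3.23 at 0 μg/ml and −2.73, −3.51, and −3.03 at 0.5 μg/ml. At 5.0 μg/ml it was 0.94 on replicate 1 and 0.55 on replicate 3, and replicate 2, with an intensity of 378, was left out because the spot carried an outlier mark. Both lower doses lay together near the bottom of the range, and both usable arrays at 5.0 μg/ml lay far above them, with a mean of 0.75 ± 0.27 (SD, n = 2) at the 50.3th percentile. The level at 5.0 μg/ml exceeded that at 0 μg/ml at least 5.59-fold and that at 0.5 μg/ml at least 5.11-fold. The bounds over 0 μg/ml were lower with the normexp background correction, run with an offset of 50 added to every intensity. The log2 bound was then 3.20 for A_1000000_P0024991 and 1.38, in place of 2.48, for A_1000000_P0042678. The parts of the correction and of the offset were not separated.

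**Figure D1:**
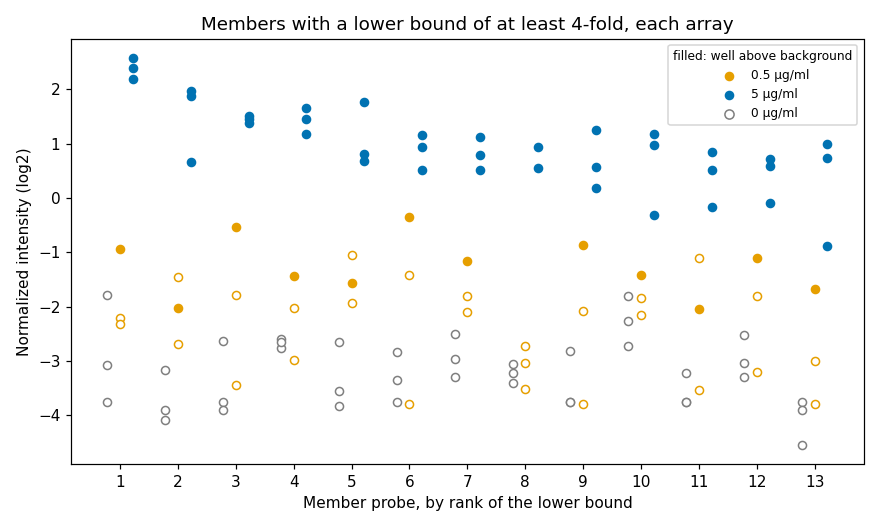
Normalized log2 intensity (vertical axis) of the 13 members with a lower bound of at least 4-fold, ordered by that bound (horizontal axis), with 1 point per array, colored by dose and filled where the spot was detected. All points at 5.0 μg/ml lie above those of the lower doses for each of the 13 members, which were chosen as dim at 0 μg/ml and high at 5.0 μg/ml. The filled points at 0.5 μg/ml, 1 for each of 12 members, all belong to replicate 3.

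In all, 13 members had a bound of at least 4-fold. The second-ranked member went from −4.09, −3.16, and −3.90 at 0 μg/ml to −1.45, −2.69, and −2.02 at 0.5 μg/ml and 1.88, 0.66, and 1.96 at 5.0 μg/ml, with a bound of 9.42-fold. The values of the 3 doses did not overlap, though only 1 array at 0.5 μg/ml, replicate 3, was above its limit. The third-ranked member, with a bound of 9.09-fold, had −2.64, −3.75, and −3.90 at 0 μg/ml, −1.78, −3.44, and −0.54 at 0.5 μg/ml, and 1.5, 1.38, and 1.46 at 5.0 μg/ml. Its arrays at 0.5 μg/ml were spread widely and overlapped those at 0 μg/ml, and its arrays at 5.0 μg/ml were nearly equal. The fourth-ranked member, with a bound of 8.98-fold, had −2.59, −2.76, and −2.65 at 0 μg/ml, −2.02, −2.98, and −1.43 at 0.5 μg/ml, and 1.45, 1.66, and 1.18 at 5.0 μg/ml. Its arrays at 0.5 μg/ml lay on both sides of the untreated arrays, while those at 5.0 μg/ml lay above all others.

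The bounds of the fifth to the 13th member ran from 7.07-fold down to 4.04-fold. Over the 13 members, the median level was −3.03, −3.55, and −3.30 on the arrays at 0 μg/ml, −1.84, −2.98, and −1.42 at 0.5 μg/ml, and 1.16, 0.58, and 0.81 at 5.0 μg/ml. The 5.0 μg/ml arrays lay above all arrays of both lower doses for all 13, and all arrays at 0.5 μg/ml lay above those at 0 μg/ml for 3 of them. Of all probes tested, 16.8% had the 5.0 μg/ml arrays above those at 0 μg/ml and 8.22% above those at 0.5 μg/ml. The 0.5 μg/ml arrays lay above those at 0 μg/ml for 1.87%. The 13 are the members with the highest levels at 5.0 μg/ml and were dim at 0 μg/ml, so the choice itself favored this separation. At 5.0 μg/ml their mean levels ranged from 0.28 to 2.38, at the 42.0th to the 72.4th percentile of detected probes. None of the 13 was detected on replicate 1 or 2 at 0.5 μg/ml, and 12 were on replicate 3.

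At 0.5 μg/ml the members were detected on some arrays far more than on others. Of the 220 members, 5 (2.27%) were detected on replicate 1, 32 (14.5%) on replicate 2, and 162 (73.6%) on replicate 3. Of the other probes dim at 0 μg/ml, 1.61%, 2.04%, and 6.67% were detected on the same arrays. Detection thus ran in the same order of the arrays for members and for the other probes. It followed the order of the detection limits, with the fewest members on the array with the highest limit (−0.88) and the most on the array with the lowest limit (−2.48).

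**Figure D2:**
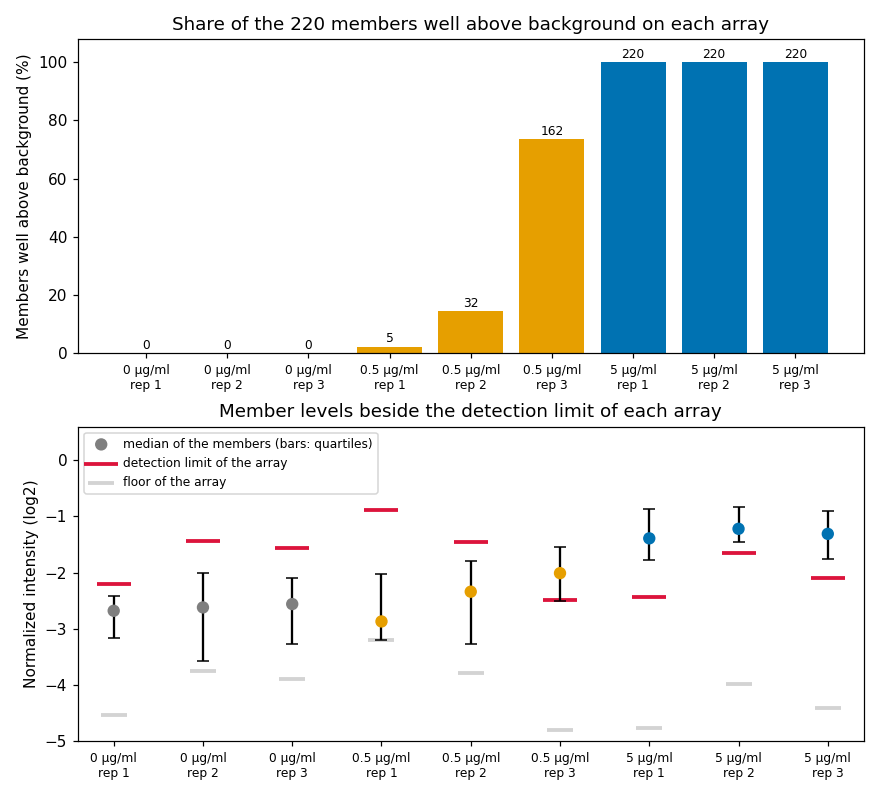
Upper panel, the share of the 220 members detected (%) on each array, with the number of members on each bar. Lower panel, the median normalized log2 intensity of the members on each array with quartiles as bars, beside the detection limit and the floor of that array; on replicate 3 at 0.5 μg/ml the median of −2.01 lies above the limit of −2.48, and on replicate 1 the median of −2.87 lies below the limit of −0.88.

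By number of arrays, 50 members (22.7%) were detected on none of the arrays at 0.5 μg/ml, 143 (65.0%) on 1 array, 25 (11.4%) on 2 arrays, and 2 (0.909%) on all 3 arrays. The last share depended on the mark and on replicate 1. It was 48.6% with the software's milder mark for a spot that is positive and significant, and 11.4% without replicate 1. The same shares over the other probes dim at 0 μg/ml were not computed. How many members carried the milder mark at 0 μg/ml was not counted, so the 48.6% does not show a gain of that mark. The replicate 3 array alone accounted for 135 of the 143. Another 23 members were detected on replicates 2 and 3, and 7 on replicate 2 alone. In total, 170 members (77.3%) were detected on at least 1 array at 0.5 μg/ml, against 9.8% of the other 22796 probes that were dim at 0 μg/ml. The median level of all probes dim at 0 μg/ml lay at the floor of each of these untreated arrays, the lowest value the software gives, while most members lay between the floor and the limit there. These shares are given without a test, because the members were chosen for their levels at the other doses.

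The median level of the members was −2.68, −2.62, and −2.56 at 0 μg/ml, −2.87, −2.34, and −2.01 at 0.5 μg/ml, and −1.39, −1.22, and −1.31 at 5.0 μg/ml. The arrays at 0.5 μg/ml lay both below and above those at 0 μg/ml, and none reached those at 5.0 μg/ml. On replicate 1 at 0.5 μg/ml, 93 members were at the floor of the array, against 12 to 53 members on the arrays at 0 μg/ml and none on replicate 3 at 0.5 μg/ml. The floor itself lay at −3.20 on replicate 1 and at −4.81 on replicate 3 at 0.5 μg/ml, so the lowest levels cannot be compared between these arrays.

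**Figure D3:**
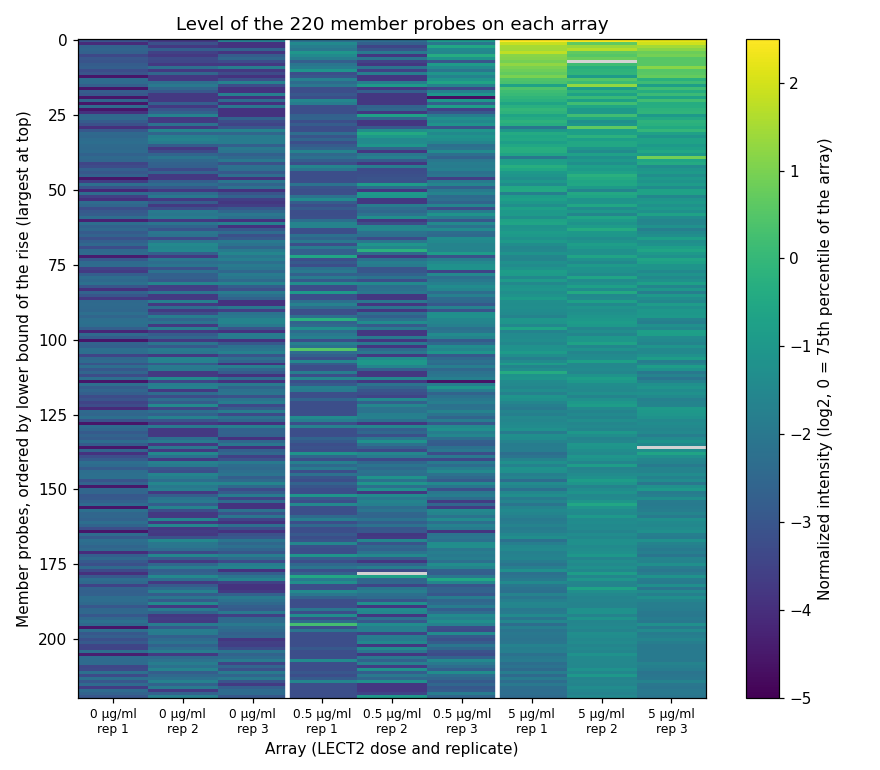
Normalized log2 intensity (color) of the 220 members (rows, ordered by lower bound, largest at the top) on each of the 9 arrays (columns, by dose and replicate), with the 3 outlier-marked spots in pale gray. The 3 columns at 5.0 μg/ml are brighter than the others in most rows, with the highest means among the first 13 rows.

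With 1 limit for all arrays, the arrays at 0.5 μg/ml came closer together. Above −1.43, the highest limit of any array at 0 μg/ml, there were 20 members (9.09%) on replicate 1, 30 (13.6%) on replicate 2, and 42 (19.1%) on replicate 3 at 0.5 μg/ml, and 117 (53.2%), 160 (72.7%), and 124 (56.4%) at 5.0 μg/ml. Replicate 1 at 0.5 μg/ml had its own limit at −0.88, so its spots between −1.43 and −0.88 were dim. Only 5 of its 20 members above −1.43 were detected there. The counts and shares above −1.43 at this dose include such dim spots. Each array at 5.0 μg/ml had more members above −1.43 than any array at 0.5 μg/ml, which the choice of the members favors. The members' spread between the 3 arrays at 0.5 μg/ml was smaller than with each array's own limit. Of all probes dim at 0 μg/ml, 3.49%, 2.0%, and 0.691% were above −1.43 on these arrays, in the opposite order to the members. At 5.0 μg/ml these shares were 1.65%, 1.85%, and 2.1%. No member was above −1.43 on all 3 arrays at 0.5 μg/ml, 7 were on 2 arrays, 78 on 1, and 135 on none. A total of 72 members (32.7%) were above −1.43 on all arrays at 5.0 μg/ml, of which 37 were above it on no array at 0.5 μg/ml, 31 on 1 array, and 4 on 2 arrays. Above −0.88, the highest limit of any array, there were 5, 6, and 6 members at 0.5 μg/ml and 55, 59, and 55 at 5.0 μg/ml, and 26 members (11.8%) passed it on all 3 arrays at 5.0 μg/ml. These limits were chosen after the values had been seen.

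The opposite pattern was rarer with each array's own limit. Against the 220 members, 34 probes were detected on each array at 0 μg/ml and on none at 5.0 μg/ml. With the limit of −0.88 on every array, 217 probes were above it on all arrays at 5.0 μg/ml and below it on all arrays at 0 μg/ml, 26 of them members, and 165 probes showed the opposite. The numbers in both directions lay closer together with a common limit, which picked a mostly different set of probes. The array limits at 5.0 μg/ml averaged lower than those at 0 μg/ml. The part of the limits in these numbers was not tested.

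Most bounds were small. The median bound was 0.42 on the log2 scale, or 1.34-fold, with quartiles of 1.14-fold and 1.66-fold. The bound was from 1-fold to 1.5-fold for 124 members (56.4%), from 1.5-fold to 2-fold for 41 (18.6%), from 2-fold to 4-fold for 24 (10.9%), and at least 4-fold for 13 (5.91%). For 18 members (8.18%) it was under 1, and no fold is given for them. A bound of at least 2-fold was thus found for 37 members (16.8%). The arrays at 0 and 5.0 μg/ml chose the members, so the bounds are a description.

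**Figure D4:**
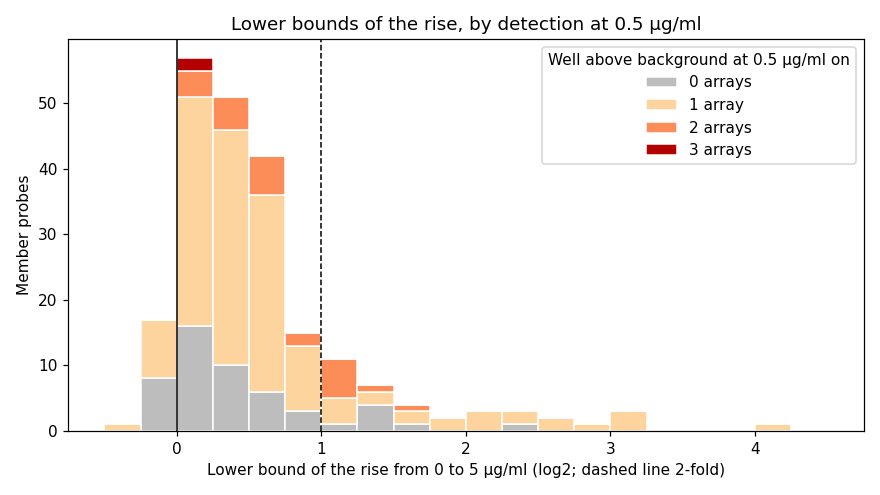
Number of members (vertical axis) by lower bound of the rise from 0 to 5.0 μg/ml (horizontal axis, log2), colored by the number of arrays at 0.5 μg/ml on which the member was detected. Most members lie between 0 and 1, 37 lie at or beyond the dashed 2-fold line, and 18 lie below 0.

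On replicate 3 at 0.5 μg/ml, detection was lowest among members with a bound under 1 and highest among those of at least 4-fold, without a steady increase between them. There, 38.9% of the members with a bound under 1 were detected, 74.2% of those from 1-fold to 1.5-fold, 80.5% of those from 1.5-fold to 2-fold, 75% of those from 2-fold to 4-fold, and 92.3% of those of at least 4-fold. On replicate 2 the shares ran from 0% for bounds of at least 4-fold to 33.3% for those from 2-fold to 4-fold, and on replicate 1 at most 3.23% of any class was detected. The differences by bound were thus not alike on the 3 arrays. The median bound was 1.21-fold for members detected on no array at 0.5 μg/ml, 1.34-fold for those on 1 array, 1.55-fold for those on 2 arrays, and 1.06-fold for the 2 members on all 3 arrays.

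Among the 50 members dim on every array at 0.5 μg/ml, 7 had a bound over 0 μg/ml of at least 2-fold. Probe A_1000000_P0042678 led these, and the others had bounds of 3.11-fold, 2.82-fold, 2.78-fold, 2.55-fold, 2.53-fold, and 2.19-fold. The member with 2.82-fold was at the floor on all arrays at 0 μg/ml (−4.54, −3.75, and −3.90), had −3.20, −3.79, and −4.69 at 0.5 μg/ml, and −0.09, 0.04, and −0.66 at 5.0 μg/ml. It was thus dim at both lower doses and detected only at the highest. Over the 50 members, the bound of 5.0 over 0.5 μg/ml had a median of 1.1-fold, was at least 2-fold for 6, and was under 1 for 18.

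The 2 members detected on every array at 0.5 μg/ml showed another pattern. One had −2.93, −1.48, and −2.10 at 0 μg/ml, −0.49, −0.72, and −2.02 at 0.5 μg/ml, and −2.10, −1.57, and −1.16 at 5.0 μg/ml. The other had −2.45, −1.84, and −1.96 at 0 μg/ml, 0.26, −1.34, and −1.73 at 0.5 μg/ml, and −2.32, −1.55, and −1.24 at 5.0 μg/ml. Both were brightest on arrays at 0.5 μg/ml, and their doses of 0 and 5.0 μg/ml overlapped. Their bounds of 5.0 over 0 μg/ml were 1.09-fold and 1.02-fold. In all, the mean at 0.5 μg/ml was at or above the mean at 5.0 μg/ml for 5 members, and for each of these the highest array at 0.5 μg/ml was replicate 1. It lay between the means of the other doses for 170 members and at or below the mean at 0 μg/ml for 45, means that include values at floors that differ between arrays.

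The 162 members detected on replicate 3 at 0.5 μg/ml allow a comparison without dim values on that side. Their median level there was −1.75, against a median of −1.25 for their means at 5.0 μg/ml. The difference per member had a median of 0.57 on the log2 scale, with quartiles of 0.27 and 0.93 and a maximum of 3.52. The array at 0.5 μg/ml lay below all arrays at 5.0 μg/ml for 117 of the 162 members and above all of them for 6. This is 1 array of 1 dose and has no replicate error. The rule required the members to be detected on every array at 5.0 μg/ml, which favors higher levels there. These differences are therefore a description, and the same counts over all probes were not computed.

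The level reached at 5.0 μg/ml was low for most members. This level and the bound differ by the same amount for all members, so they are not separate results. The mean level over the 3 arrays had a median of −1.32, with quartiles of −1.55 and −1.01 and a maximum of 2.38. The 19029 probes detected on every array at 5.0 μg/ml had a median of 0.73. The median member stood at the 6.59th percentile of these probes, 191 members were below the 25th percentile, and 8 were above the median. Only 15 members had a level above 0, the 75th percentile of the array, and 5 had a level above 1.

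**Figure D5:**
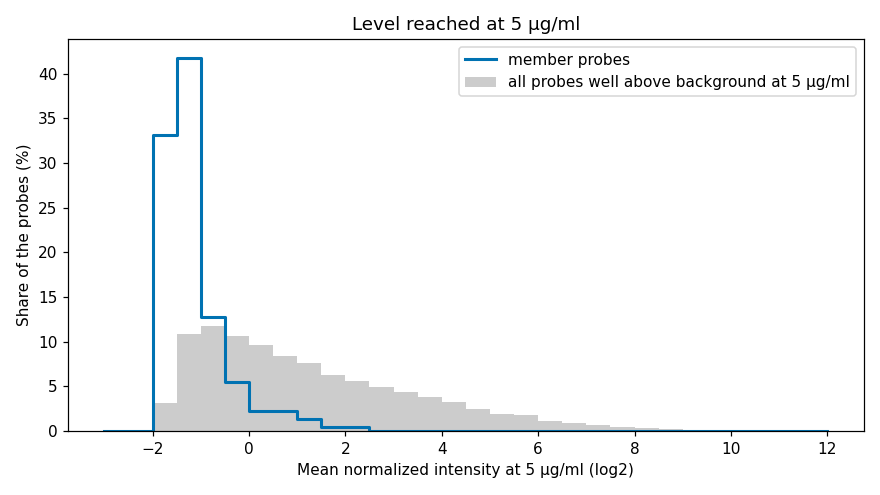
Share of the probes (%, vertical axis) by mean normalized log2 intensity at 5.0 μg/ml (horizontal axis), for the members (line) and for all 19029 probes detected on every array of that dose (gray). The members are gathered between −2 and −1, and 15 of them lie above 0.

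The arrays at 5.0 μg/ml differed more for the members than for all probes detected at that dose. The SD over the 3 arrays had a median of 0.35, against 0.26 for all probes detected at that dose, and was under 0.5 for 175 members. The members had lower levels than most of these probes, and probes of like level were not compared. The brightest array was replicate 1 for 60 members, replicate 2 for 100, and replicate 3 for 60. For 4 members the SD was over 1. The member with the largest SD, 1.51, had −2.01, −1.24, and 0.91 at 5.0 μg/ml, so that replicate 3 alone raised its mean. The member ranked 16th had −0.67, 1.29, and −0.79, with replicate 2 alone high, and the member ranked 30th had −2.07, 0.68, and −0.43, with replicate 1 low. The member ranked 13th had 0.99, −0.88, and 0.73, with replicate 2 low.

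For all probes the differences between doses were tested with limma, which fits each probe and steadies its variance with those of the other probes, over the 19995 probes detected on every array of at least 1 dose. All 220 members are among these, because they pass the filter through the arrays at 5.0 μg/ml, where they had to be bright. Between 5.0 and 0 μg/ml, 54 members (24.5%) were called higher at an adjusted p under 0.05, and 0.98% of all probes tested were; none was called lower, against 0.095% of all probes. The arrays at 5.0 μg/ml lay above all those at 0 μg/ml for 180 of the 218 members with no outlier mark at these doses (82.6%), against 16.8% of all probes, and below them for 0, against 10.1%. The rule used this contrast, and nothing is read from these counts.

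Between 0.5 and 0 μg/ml, no member and no other probe was called by limma (0%). At an unadjusted p under 0.05 there were 28 members (12.7%) and 231 of all probes tested (1.16%). The arrays at 0.5 μg/ml lay above all arrays at 0 μg/ml for 15 of 219 members (6.85%) and below them for 1, against 1.87% and 1.36% of all probes tested. The arrays at 0 μg/ml were required to be dim for the members, so this contrast is not independent of the choice. Every member was dim on the arrays at 0 μg/ml and most were dim on replicates 1 and 2 at 0.5 μg/ml, so most of the values compared here are below a detection limit.

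Between 5.0 and 0.5 μg/ml, limma called 18 members (8.18%) higher, and 35 of all probes tested (0.175%). At an unadjusted p under 0.05 there were 131 members (59.5%) and 8.77% of all probes. The arrays at 5.0 μg/ml lay above all arrays at 0.5 μg/ml for 126 of 217 members (58.1%), against 8.22% of all probes, and below them for 0, against 4.51%. The median log2 difference was 1.06 over the members and 0.04 over all probes tested. The members passed the filter through the arrays at 5.0 μg/ml, where the rule required them to be bright, so these counts are not independent of the choice and are given as a description. In limma no member and no other probe was called without replicate 1 or without replicate 3 at 5.0 μg/ml. No probe was called in the first scan alone or with no filter on dim probes either. In these settings 119, 110, 130, and 115 members had an unadjusted p under 0.05. The same counts over all probes were not computed. The fit takes values at the floor of an array as they stand.

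The 18 members were little detected at 0.5 μg/ml. There, 10 were dim on every array and 8 were detected on replicate 3 alone. For the 10, the bound of 5.0 over 0.5 μg/ml ranged from 1.1-fold to 5.11-fold and was at least 2-fold for 5. The largest was that of probe A_1000000_P0042678, at least 5.11-fold. For the other 8, the mean at 5.0 μg/ml lay 1.26 to 3.52 above the level on replicate 3 at 0.5 μg/ml on the log2 scale, with a median of 2.31. Probe A_1000000_P0024991 was among these. The other arrays at 0.5 μg/ml were dim for these members, so no difference from those arrays is given. Of the 13 members with a bound over 0 μg/ml of at least 4-fold, 6 were among the 18.

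Some members passed the rule narrowly. On its closest array, a member was a median of 0.19 on the log2 scale from the limit, 73 members were within 0.1, and 141 were within 0.25. Only 6 members were more than 1 from the limit on every array of both doses. The member closest to the limit had an intensity of 65.00 on replicate 3 at 5.0 μg/ml, where the limit was 65.00. The probe closest outside had 34.44 on replicate 1 at 5.0 μg/ml, where the limit was 34.46, and met the rule on the other 5 arrays. In all, 1202 probes missed the rule on exactly 1 array, 599 of them at 0 μg/ml and 603 at 5.0 μg/ml, and 102 missed it by under 0.1. The arrays that most often decided were replicate 1 at 0 μg/ml, which alone held out 521 probes, and replicate 2 at 5.0 μg/ml, which alone held out 431.

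The arrays were read on 2 scan dates, called scans here, the first with 2 arrays per dose and the second with 1. The second scan held replicate 2 at 0 and 0.5 μg/ml and replicate 3 at 5.0 μg/ml. Replicate 3 at 5.0 μg/ml was on another slide than all other arrays. Within the second scan, the dose of 5.0 μg/ml and the slide thus cannot be told apart. The members' median levels at 0, 0.5, and 5.0 μg/ml were −2.69, −2.36, and −1.34 in the first scan and −2.62, −2.34, and −1.31 in the second. The levels were nearly the same in both scans. The rule required the members to be dim at 0 μg/ml and detected at 5.0 μg/ml on the arrays of both scans. The order of these doses was thus set by the choice. The median bound was 0.55 (1.47-fold) within the first scan and 0.12 (1.08-fold) within the second, where the limit at 0 μg/ml was the highest of that dose. A bound of at least 2-fold was found for 51 members in the first scan and for 28 of 219 in the second. With the first scan alone, 403 probes met the rule and 165 met its opposite. With the second scan alone, which has 1 array per dose, the numbers were 4026 and 2493.

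The members were spread over the array surface with more of them in 1 corner. With the array cut in the middle of its rows and of its columns, the section with the lower row and column numbers held 77 members (35.0%), against 25.1% of all probes, and the other sections held 46, 52, and 45 members (20.9%, 23.6%, and 20.5%). The part of the position in the detection calls was not tested.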

How the data were processed

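The authors deposited the processed intensity of each spot and its quality flags for 9 arrays, extracted with Agilent Feature Extraction 10.7.3.1 according to the submitters' processing notes. The processed intensity is background-subtracted and not scaled between arrays. A second deposited table, which served as an alternative, holds these intensities rounded after multiplication by 1 constant per array. No gene names accompany the probes, so the gene lists and cell type markers that had been laid down were not run, and at most 2 probe IDs were to be given: the largest bound of all members, and the largest among members dim on all arrays at 0.5 μg/ml. The members, lists and tests were chosen with earlier results of these data known.

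Doses came from titles, descriptions and treatments; a source field giving 0 μg/ml for all samples and an extraction text on plant material were not used. The 1319 control spots and outlier-marked spots were left out (each probe has 1 spot). Log2 intensities minus the 75th percentile over all 49077 probes were fitted with limma 3.58.1 in R 4.3.3 over all 9 arrays. The tests were two-sided, with Benjamini-Hochberg over 19995 probes. This procedure was tested on simulated data with independent normal noise. The simulated data had no floor and no correlated arrays, so that test does not cover these features of the members. Deviations of equal-numbered arrays from the dose means had correlations over the probes tested of 0.35, 0.754, and 0.639 for 0 with 0.5 μg/ml. The correlations of the arrays at 5.0 μg/ml were 0.374, 0.139, and −0.105 with those at 0 μg/ml, and 0.391, 0.237, and −0.0431 with those at 0.5 μg/ml. By a criterion of over 0.1 for every pair, the numbers paired the arrays at 0 and 0.5 μg/ml only, which no source states. Equal-numbered arrays at these doses were also read in the same scan. Replicates 2 and 3 at 5.0 μg/ml were read in another scan than the arrays of their number at the lower doses. These correlations thus do not separate the number from the scan. The fit has no replicate block; the block is an alternative and left 0 members called between these doses. The p-values measure the spread between arrays, which the submitters call independent experiments. Alternatives were other scalings, background correction, flags, filters, blocks, and fewer arrays. Replicate 3 at 5.0 μg/ml had a separate slide.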

Additional observations from a re-analysis of the deposited data

How the results depend on the processing

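The number of members was 237 to 741 on leaving out single arrays at 0 or 5.0 μg/ml (741 without replicate 1 at 0 μg/ml, 651 without replicate 2 at 5.0 μg/ml) and 403 in the first scan alone. It was 178 with the positive-and-significant flag, 218 without outlier-marked probes, and 217 with a limit of −0.88 on every array, chosen after seeing the data. Of these 217 probes, 26 were among the 220 members. The share of members detected on all arrays at 0.5 μg/ml, 0.91%, became 48.6% with the positive-and-significant flag. The members' share with that flag at 0 μg/ml was not counted. With a limit of −1.43 on every array, the highest at 0 μg/ml, the share was 0%. It was 0.91% to 11.4% without single arrays at 0.5 μg/ml (11.4% without replicate 1, 1.82% without replicate 2).

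The median bound of 0.42 became 0.29 with the percentile over probes detected on all 9 arrays, 0.57 with quantile normalization, 0.77 with no scaling, 0.63 with the authors' values, 0.33 with normexp on the median signals, and 0.24 with the 5th percentile of detected probes as the dim limit. It was 0.18 to 0.57 with an array left out (0.18 without replicate 1 at 0 μg/ml), and 0.55 and 0.12 in the first and the second scan, which were separated after seeing the data. Under the first 5 settings named, members with a bound of at least 2-fold numbered 25 (normexp) to 63 (no scaling), and those under 1 from 0 to 44. The bound was under 1 for 5 members in the first scan and for 96 of 219 in the second. Members under 1 were not counted with an array left out. The median level at 5.0 μg/ml was −4.52, 6.27, 6.42, 6.33, and −0.80 under the first 5 of these settings, in the order given, each of which has its own zero, and −1.38 to −1.28 with an array left out. The bound of probe A_1000000_P0024991 was 3.20 (normexp) to 4.48 (no scaling), and that of A_1000000_P0042678 was 1.38 (normexp) to 2.93 (no scaling).

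Of the members called by limma between 5.0 and 0 μg/ml, 54 became 12 with no filter, 34 with quantile normalization, 24 with normexp, 127 with the replicate block, 86 with the scan as a block, and 86 with only the 6 arrays compared, and 12 to 76 with an array left out (24 and 26 without replicates 1 and 3 at 0 μg/ml, and 14, 22, and 12 without replicates 1, 2, and 3 at 5.0 μg/ml). Over all probes tested, higher and lower calls between these doses were 196 and 19 in the main fit and 20 and 1 with no filter. They were 141 and 7 with quantile normalization and 260 and 8 with normexp. The replicate block gave 824 and 276, the scan as a block 575 and 237, and the 6 arrays alone 331 and 53. With an array left out, the higher calls ran from 26 to 317. Between 5.0 and 0.5 μg/ml, 18 members of 35 higher calls became 0 of 0 with no filter or in the first scan alone. The percentile over probes detected on all 9 arrays gave 8 of 18, quantile normalization 11 of 18, and normexp 8 of 43. The replicate block gave 58 of 227 (and 16 lower calls), a variance trend 6 of 20, and the 6 arrays alone 6 of 8. Leaving out replicate 1, 2, or 3 at 5.0 μg/ml gave 0 of 0, 2 of 3, and 0 of 0. At 0.5 μg/ml it gave 2 of 2, 6 of 11, and 27 of 62 (2 lower). At 0 μg/ml it gave 11 of 16, 14 of 29, and 4 of 5. The causes were not tested. Between 0.5 and 0 μg/ml limma called 0 members and 0 of all probes tested under all 20 alternatives, the replicate block included. Under these, 1 to 49 members had an unadjusted p under 0.05, a count not made over all probes. Signal over background limits every member to a bound at 0 μg/ml.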
